A study of Mus musculus with 7 samples.

Results

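The genes for 9 transcription factors of the osteoblast lineage, Runx1, Runx2, Runx3, Cbfb, Sp7, Dlx3, Dlx5, Msx1 and Msx2, were taken by symbol from a table of reads per gene, where each had 1 row among 18468 genes. The list was set by function, with earlier results of these data known, and all 9 genes are accounted for here. The reads came from C3H10T1/2 cells, a mouse mesenchymal line that can be driven toward osteoblasts, after 12 h without serum and a further 48 h, still without serum, with 2 μM purmorphamine (4 libraries) or 0.02% DMSO, the vehicle (3 libraries). Purmorphamine is a small-molecule agonist of Smoothened (Smo), the membrane protein through which Hedgehog signals reach the Gli transcription factors. No transgene is named for these cells. They are 1 line, examined at 1 concentration and 1 time, and no osteogenic supplement is named for the cells that were sequenced. Whether the libraries came from separate cultures is not stated. The p-values below therefore set group differences against the spread between these libraries, and may not speak for repeat experiments.

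RUNX proteins bind DNA through the Runt domain, and CBFβ, the product of Cbfb, binds no DNA itself but strengthens and stabilizes that binding. Runx2 is a factor without which osteoblasts do not form. Sp7, also called osterix, is a zinc finger factor that acts downstream of Runx2, while the homeobox proteins Dlx3, Dlx5, Msx1 and Msx2 act in craniofacial, dental and skeletal development, with Dlx5 known as an activator and Msx2 often as a repressor. Runx1 is best known for its part in blood cell formation and is also used by skeletal progenitors, and Runx3 acts in cartilage maturation, sensory neurons and lymphocytes.

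Each of the 3 Runx genes carries near a start site a pair of RUNX recognition words in tandem, shown here as a sequence feature that the 3 genes share. The 30 bases around each pair, from RefSeq on GRCm38.p6 and read along the strand of the gene, have the 2 copies of AACCACA in capitals.
Runx1, chr16:92826025-92826054, minus strand: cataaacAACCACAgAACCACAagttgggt
Runx2, chr17:44814583-44814612, minus strand: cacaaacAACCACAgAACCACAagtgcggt
Runx3, chr4:135120503-135120532, plus strand: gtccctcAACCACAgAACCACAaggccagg
The first copy begins 27 bases after the annotated start in Runx1 and 22 bases after it in Runx2, and 135 bases before it in Runx3. In all 3 the copies are 1 base apart. Among 32544 windows of 300 bases (250 before and 50 after a start), AACCACA occurred on either strand in 5.29%, and a pair on 1 strand beginning within 12 bases of each other in 11 windows, or 0.0338%. The stretch from the first copy to the end of the second was identical in 4 windows, those of the 3 Runx genes and that of Gm16225, which covers the Runx3 site on the opposite strand. The Gli word GACCACCCA, searched on both strands, was in 0.246% of the windows and in none of the 8 windows of the 6 genes that had one (Cbfb, Msx1, Msx2, Runx1, Runx2 and Runx3). The homeobox word TAATTA, its own reverse complement, was in 5.29% of all windows and in 1 of these 8, that of Msx2. Runx1 and Runx3 each had a further window, at another start site, that held 0 matches to AACCACA. Runx2 had an additional match 81 bases before its start. These matches are letters only. Reads per gene do not separate transcripts from the different start sites of a Runx gene.

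The libraries held 14337225 to 14342154 reads each, since the authors had resampled them to like depth. Of the 9 genes, 7 passed the filter on low counts. With purmorphamine, Runx2, Cbfb, Dlx5, Msx1 and Msx2 rose, and Runx1 fell, at an adjusted p under 0.2, the false discovery rate used in the study (quasi-likelihood test in edgeR, Benjamini-Hochberg adjusted across 12388 genes). Runx3 did not pass, and Sp7 and Dlx3 had too few reads to be tested. The same test called 31.4% of all genes higher and 31.1% lower, so that a call by itself was common in these cells, and the sizes below are to be read against a median absolute log2 fold change of 0.198 over all genes tested. In RNA from whole cultures, fewer cells expressing a gene and less RNA per cell cannot be told apart.

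**Figure D1:**
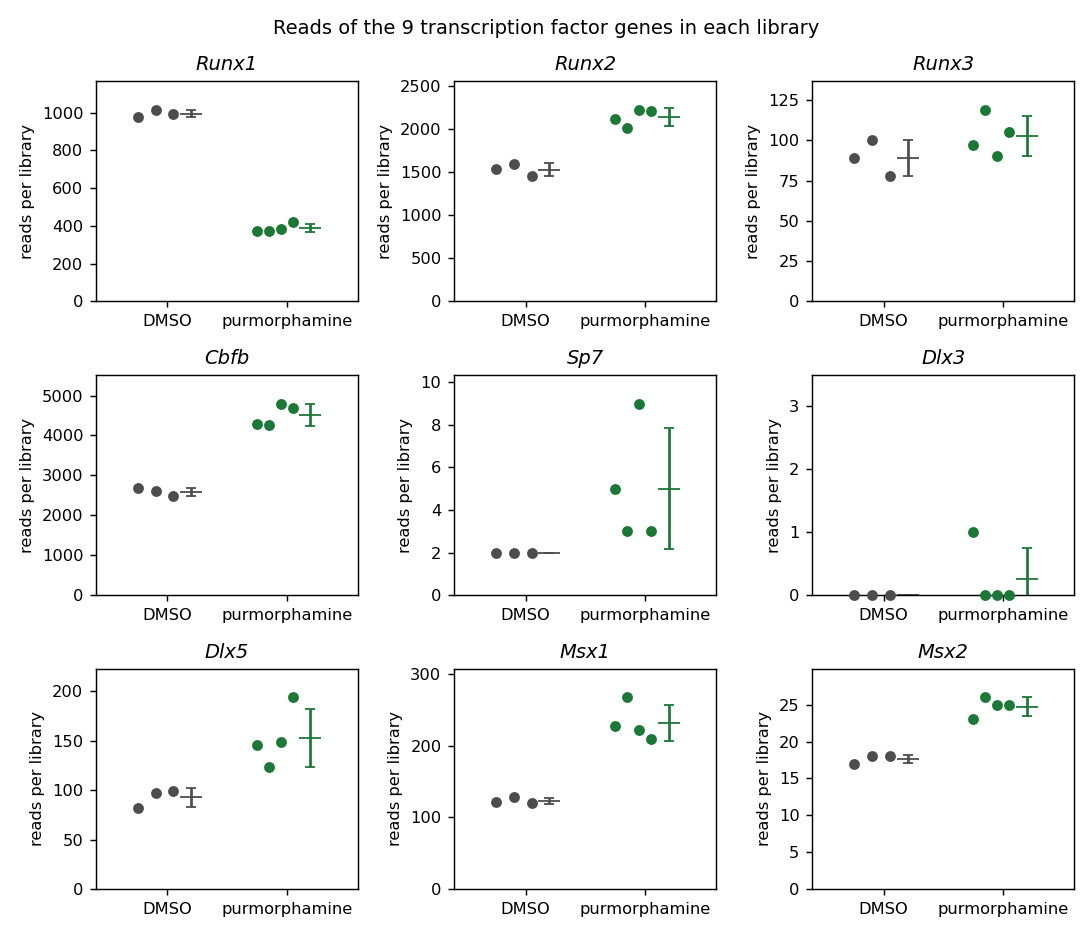
Reads per library (vertical axes, each from 0) for the 9 genes with DMSO (grey, n = 3) and purmorphamine (green, n = 4). Points are libraries, and bars beside them give the mean ± SD. Runx1 is lower in every purmorphamine library, whereas Runx2, Cbfb, Dlx5, Msx1 and Msx2 are higher in every one. Runx3 overlaps, Sp7 stays at 9 reads or fewer and Dlx3 at 1 or none.

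The largest change among the 7 genes tested was the fall of Runx1 (ENSMUSG00000022952, chromosome 16 from 92601512 to 92826511, minus strand; positions of genes are in mm9, as in the table). Its reads were 976, 1015 and 991 with vehicle and 374, 374, 385 and 419 with purmorphamine. The vehicle libraries lay close together, all far above the highest purmorphamine library. From 994 ± 19.7 reads (SD, n = 3) the mean dropped to 388 ± 21.3 (SD, n = 4), and the log2 fold change was -1.40 (standard error, SE, 0.0583, edgeR adjusted p = 4.2e-12), a level 0.378 times that with vehicle (95% interval 0.347 to 0.412).

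Runx2 (ENSMUSG00000039153, chromosome 17 from 44632736 to 44951946, minus strand) moved the other way. It had 1540, 1599 and 1454 reads under DMSO, against 2121, 2013, 2228 and 2214 under purmorphamine, so that the groups lay apart. From 1531 ± 72.9 to 2144 ± 99.4 reads, the log2 fold change was 0.44 (SE 0.0520, edgeR adjusted p = 2.49e-06), or 1.36-fold (95% interval 1.26 to 1.46). Runx3 (ENSMUSG00000070691, chromosome 4 from 134676367 to 134734105, plus strand) had 89, 100 and 78 reads under DMSO, against 97, 119, 90 and 105 under purmorphamine. These groups overlapped. Its log2 fold change of 0.16 (95% interval -0.12 to 0.44, adjusted p = 0.342 from edgeR) leaves room for a change of up to 1.36-fold upward or to 0.921 of the vehicle level. Without purmorphamine replicate 7, Runx3 passed the threshold of 0.2 (log2 fold change 0.22, adjusted p = 0.194).

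The summed reads of the 3 Runx genes were 2605, 2714 and 2523 with vehicle and 2592, 2506, 2703 and 2738 with purmorphamine, ranges that overlap. An exact permutation test over the 35 assignments, on log2 of the sums scaled between libraries, gave p = 0.486 (two-sided). What differed was the makeup of that sum, which does not depend on scaling between libraries. Of the summed reads, Runx2 held 58.55% ± 0.807 with vehicle and 81.36% ± 0.944 with purmorphamine. Shares per kb of exon, given next, refer to another total, whose level was not tested. Counted per kb of exon, Runx2 held 63.8%, 63.4% and 62.7% of the Runx reads with vehicle and 82.6%, 80.6%, 83.5% and 81.8% with purmorphamine. Runx1 held 30.2% ± 1.01 (SD, n = 3) and 10.9% ± 0.348 (SD, n = 4), and Runx3 6.49% ± 0.534 and 6.97% ± 1.04. The share of Runx2 was higher by 18.8 percentage points with purmorphamine, with no overlap between the groups (two-sided exact permutation p = 0.0286, which is the lowest value possible with 3 and 4 libraries), while that of Runx3 overlapped (p = 0.543 by the same exact test). Put as a ratio of reads within a library, Runx2 stood at 1.54 ± 0.0632 times Runx1 with vehicle and 5.53 ± 0.237 times with purmorphamine.

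**Figure D2:**
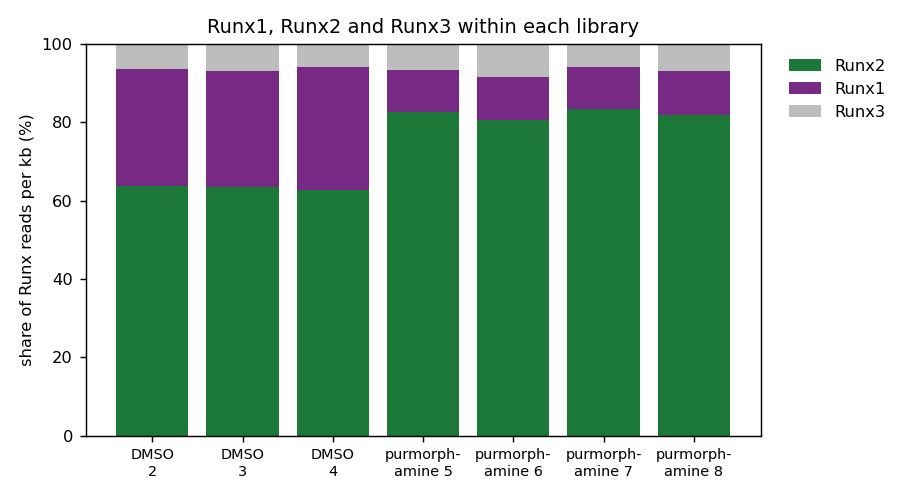
Share of Runx1, Runx2 and Runx3 in the Runx reads per kb of exon (vertical axis, percent) for each of the 7 libraries, named by treatment and number. Runx2 takes 62.7% to 63.8% in the DMSO libraries and 80.6% to 83.5% in the purmorphamine libraries, Runx1 falls from 30.2% to 10.9% on average, and Runx3 stays a small share throughout.

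Cbfb (ENSMUSG00000031885, chromosome 8 from 107694374 to 107742086, plus strand), the shared partner of the RUNX proteins, had 2684, 2607 and 2479 reads under DMSO, against 4283, 4257, 4798 and 4694 under purmorphamine. All 4 treated libraries were far above the vehicle libraries. The means of 2590.0 ± 104 and 4508 ± 278 reads gave a log2 fold change of 0.75 (SE 0.0548, edgeR adjusted p = 5.49e-09), or 1.69-fold (95% interval 1.56 to 1.83). Within a library, Cbfb stood at 1.69 ± 0.0572 reads for each read of Runx2 with vehicle and at 2.10 ± 0.0577 with purmorphamine, and the 2 ranges of this ratio did not overlap.

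Among the homeobox genes, Msx1 (ENSMUSG00000048450, chromosome 5 from 38211524 to 38216022, minus strand), known for its part in tooth and craniofacial progenitors, had 122, 128 and 120 reads under DMSO, against 228, 268, 222 and 210 under purmorphamine. Its groups were well apart, and its log2 fold change of 0.86 (SE 0.104, edgeR adjusted p = 3.05e-06) was the largest increase of the 7 genes tested, 1.82-fold (95% interval 1.56 to 2.12). That interval overlapped the interval of Cbfb (1.56 to 1.83), so the order of these increases is not settled. Dlx5 (ENSMUSG00000029755, chromosome 6 from 6827605 to 6832285, minus strand), which is induced by BMP in osteoblast precursors, had 82, 97 and 99 reads under DMSO, against 146, 123, 149 and 194 under purmorphamine. The groups did not overlap, but the purmorphamine libraries were widely spread, with the library of 194 reads standing highest. Its log2 fold change was 0.68 (SE 0.146, edgeR adjusted p = 0.00108), or 1.60-fold (95% interval 1.29 to 1.98), and between 0.55 and 0.78 with single libraries left out.

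Msx2 (ENSMUSG00000021469, chromosome 13 from 53562050 to 53568643, minus strand), a homeobox factor of the skull sutures and a target of BMP, was much scarcer than Msx1. It had 17, 18 and 18 reads under DMSO, against 23, 26, 25 and 25 under purmorphamine. Libraries of a group lay within 3 reads of each other, and the groups did not overlap. That spread (SD 0.577 with vehicle and 1.26 with purmorphamine) is below what counting error alone would usually give at such counts. The lack of overlap is therefore no measure of precision. The log2 fold change of Msx2, 0.44 (95% interval -0.02 to 0.89, adjusted p = 0.124 from edgeR), passed the threshold of 0.2 but not one of 0.05. The call was lost with DESeq2 (adjusted p = 0.297) and in edgeR without DMSO replicate 2 (adjusted p = 0.229). Per kb of exon, Msx2 held 11.6%, 11.7% and 12.4% of the Msx1 and Msx2 reads with vehicle and 8.70%, 8.39%, 9.61% and 10.1% with purmorphamine. This was a difference of -2.72 percentage points, resting on 17 to 26 reads of Msx2 in a library. A two-sided exact permutation test gave p = 0.0286, the lowest value possible with 3 and 4 libraries.

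**Figure D3:**
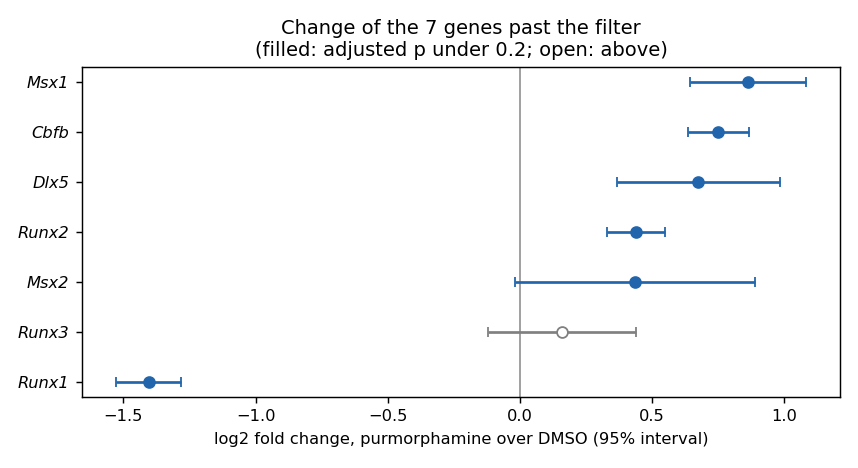
Log2 fold change of purmorphamine over DMSO (horizontal axis) with its 95% interval from edgeR for the 7 genes past the filter on low counts. Filled points have an adjusted p under 0.2. Runx1 stands alone on the left at -1.40, Msx1, Cbfb, Dlx5, Runx2 and Msx2 lie from 0.86 down to 0.44, the interval of Msx2 just reaches below 0, and the open point is Runx3.

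Sp7 and Dlx3 were near or below the limit of detection, set here at 3 reads in a library. Sp7 (ENSMUSG00000060284, chromosome 15 from 102186840 to 102197485, minus strand) had 2 reads in each vehicle library, which counts as not detected, and 5, 3, 9 and 3 reads with purmorphamine. In all, 6 reads in 3 libraries stood against 20 in 4, a ratio of 2.5 per library with an exact 95% counting interval of 0.968 to 7.61, which includes no change. The exact permutation test gave p = 0.0857 (two-sided). Dlx3 (ENSMUSG00000001510, chromosome 11 from 94981203 to 94986810, plus strand) had 0 reads in every library but 1, which held a single read with purmorphamine. At the depth of these libraries, a level of up to 3 reads can go unseen as 0, or 0.209 CPM (reads scaled to library size), for counting error only.

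For the 6 of the 9 genes that rose or fell, the groups did not overlap in the deposited counts, upward in 5 and downward in 1. Over all genes tested, 29.1% did not overlap upward and 20.4% downward. Sp7, which was not among the genes tested, also did not overlap, with 2 reads in each vehicle library and 3 to 9 with purmorphamine. For Runx1, Runx2, Cbfb, Msx1 and Msx2 the exact permutation test of single genes gave its smallest value (p = 0.0286, two-sided), for Dlx5 it gave p = 0.0571 and for Runx3 p = 0.314. The value for Msx2 rests on 17 to 26 reads in a library.

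Levels of the genes were compared per kb of exon, as CPM per kb. With vehicle the order was Cbfb at 52.9 ± 2.04, Runx2 at 12.3 ± 0.537, Runx1 at 5.88 ± 0.0980, Dlx5 at 2.91 ± 0.291, Msx1 at 2.83 ± 0.0833, Runx3 at 1.26 ± 0.151 and Msx2 at 0.383 ± 0.0123. Neighbours in this order lay apart except Dlx5 and Msx1, whose libraries overlapped. With purmorphamine Cbfb (89.2 ± 5.84) and Runx2 (16.7 ± 0.837) still led, Msx1 (5.15 ± 0.544) and Dlx5 (4.65 ± 0.901) overlapped each other and now stood above Runx1 (2.22 ± 0.121), and Runx3 (1.41 ± 0.164) and Msx2 (0.519 ± 0.0259) came last. Sp7 was at 0.0419 CPM per kb with vehicle and 0.102 with purmorphamine. Among all genes tested that had an exon length, Cbfb ranked at the 93.5th percentile with vehicle and the 96.9th with purmorphamine, Runx2 at the 68.2nd and 76.4th, Msx1 at the 28.3rd and 42.8th, and Runx1 at the 46.8th and 23.3rd. Dlx5 ranked at the 28.9th and 39.8th, Runx3 at the 16.0th and 16.7th, and Msx2 at the 5.73rd and 7.74th.

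**Figure D4:**
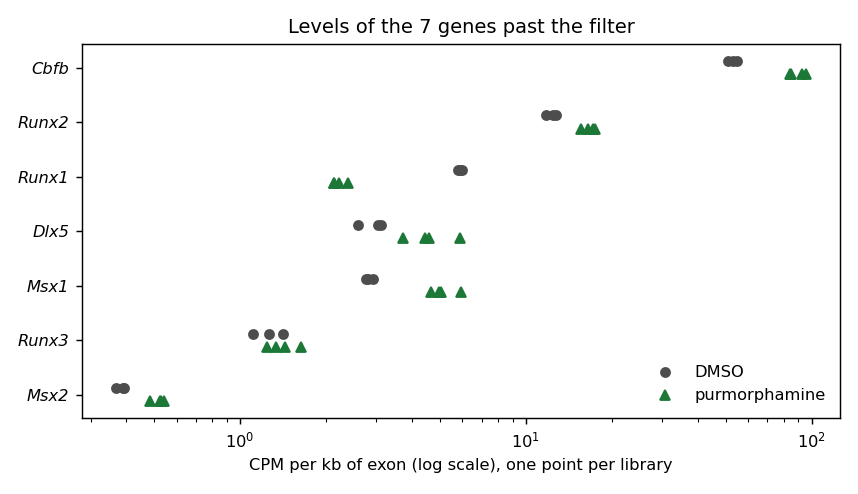
Level per kb of exon (horizontal axis, CPM per kb, log scale) of the 7 genes past the filter, with 1 point per library (circles DMSO, triangles purmorphamine). Cbfb and Runx2 lead in both groups. Runx1 lies above Dlx5 and Msx1 with DMSO, at 5.88 on average, and below both with purmorphamine, at 2.22.

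Proteins that bind RUNX factors or set their activity were counted from a list of 25 genes, of which 23 were tested, in 24 rows since Hdac4 has 2 rows. Of these rows 12 were called higher, 4 lower and 8 not called, against 31.4% higher and 31.1% lower over all genes tested. The median log2 fold change of the rows was 0.07 (0.004 over all genes tested). Of these genes, 4 passed the stricter rule for naming (adjusted p under 0.05, at least a 2-fold change and a mean of 20 reads in a group), which 5.73% of all genes tested met. Twist2, a basic helix-loop-helix protein known to restrain Runx2, rose from 38.3 ± 3.21 to 172 ± 24.8 reads (log2 fold change 2.11, adjusted p = 4.37e-09 from edgeR). Hey1, a Notch target and repressor, rose from 91.3 ± 11.5 to 239 ± 33.1 reads (1.34 on the log2 scale), and Runx1t1, a corepressor of the ETO family, from 312 ± 12.3 to 674 ± 24.3 reads (1.06). Sox9, the cartilage factor that represses Runx2, fell from 5554 ± 273 to 2096 ± 116 reads (-1.45, adjusted p = 5.72e-13).

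Smaller increases were those of Twist1, the relative of Twist2, from 356 ± 17.2 to 575 ± 26.4 reads (log2 fold change 0.65), and of both rows of the histone deacetylase Hdac4 (0.69 and 0.90). The remaining 6 rows called higher, those of Tle2, Smurf2, Smurf1, Wwtr1, Zfp521 and Cbfa2t2, had log2 fold changes from 0.30 down to 0.09. Genes of this list known as repressors of Runx2 moved in both directions. The Groucho corepressor Tle1 fell from 645 ± 18.2 to 464 ± 35.9 reads (-0.52), and Hdac3 fell less (-0.20), as did Tle3 (-0.09), whereas Tle2, a relative of Tle1, rose (0.30). Smad1, Smad5, Atf4, Yap1, Mef2c, Ep300, Hdac5 and Tle4 were not called, at log2 fold changes between -0.06 and 0.05.

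Of 16 genes of osteoblasts and osteocytes, many of them known targets of Runx2 or Sp7, 9 were tested. Of these 1 was called higher (31.4% over all genes tested), 6 lower (31.1%) and 2 were not called, with a median log2 fold change of -0.47. The increase was that of Alpl, which encodes tissue-nonspecific alkaline phosphatase. Alpl stayed at 0 or 1 read under DMSO, which counts as not detected, and reached 202 ± 19.8 reads with purmorphamine. With 1 read in 3 libraries against 809 in 4, the ratio per library was 607 with an exact 95% counting interval of 109 to 23994.6, which covers counting error only. Spp1, which encodes osteopontin, fell from 843 ± 33.3 to 214.5 ± 22.0 reads (log2 fold change -2.02, adjusted p = 9.56e-13 from edgeR), Dmp1, a matrix protein of osteocytes, from 85.0 ± 8.72 to 12.0 ± 4.69 (-2.86), and Phex, a peptidase of the phosphate axis, from 798 ± 16.2 to 334.5 ± 48.4 (-1.30). Col1a1, a chain of the main collagen of bone, was at 14057.7 ± 522 and 15291.8 ± 1445 reads (log2 fold change 0.07, adjusted p = 0.341). Col1a2, the other chain of that collagen, fell (-0.23, adjusted p = 0.000766), as did Sparc (-0.58), which encodes osteonectin, and Tnfrsf11b (-0.47), which encodes osteoprotegerin. Bglap, Bglap2, Ibsp, Mmp13, Sost and Tnfsf11 had no more than 8 reads in any library and were not tested.

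Of 13 other Dlx, Msx and Sp genes, 10 had a row and 6 were tested. Of these 1 was called higher (Sp1, log2 fold change 0.13), 2 lower and 3 not called, against 31.4% higher and 31.1% lower over all genes tested. The decreases were those of Dlx1, from 122 ± 13.2 to 75.0 ± 12.9 reads (-0.75, adjusted p = 0.000267 from edgeR), and Dlx2, from 73.0 ± 12.8 to 46.5 ± 6.61 (-0.70, adjusted p = 0.00219), which sit together as a gene pair and fell where Dlx5 rose. Dlx6, the neighbour of Dlx5, had 3, 10 and 7 reads under DMSO, against 10, 8, 13 and 7 under purmorphamine, too few to be tested. Of 6 direct BMP response genes (Id1, Id2, Id3, Id4, Smad6 and Smad7) none was called higher and 5 were called lower, against 31.4% and 31.1% over all genes tested. Their median log2 fold change was -0.48. Id1 fell from 468 ± 22.0 to 274 ± 22.6 reads (-0.82), and Id3 from 575 ± 13.0 to 348.5 ± 16.2 (-0.77). Whether BMP signalling had a part in the changes of Dlx5, Msx1 and Msx2 was not tested.

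**Figure D5:**
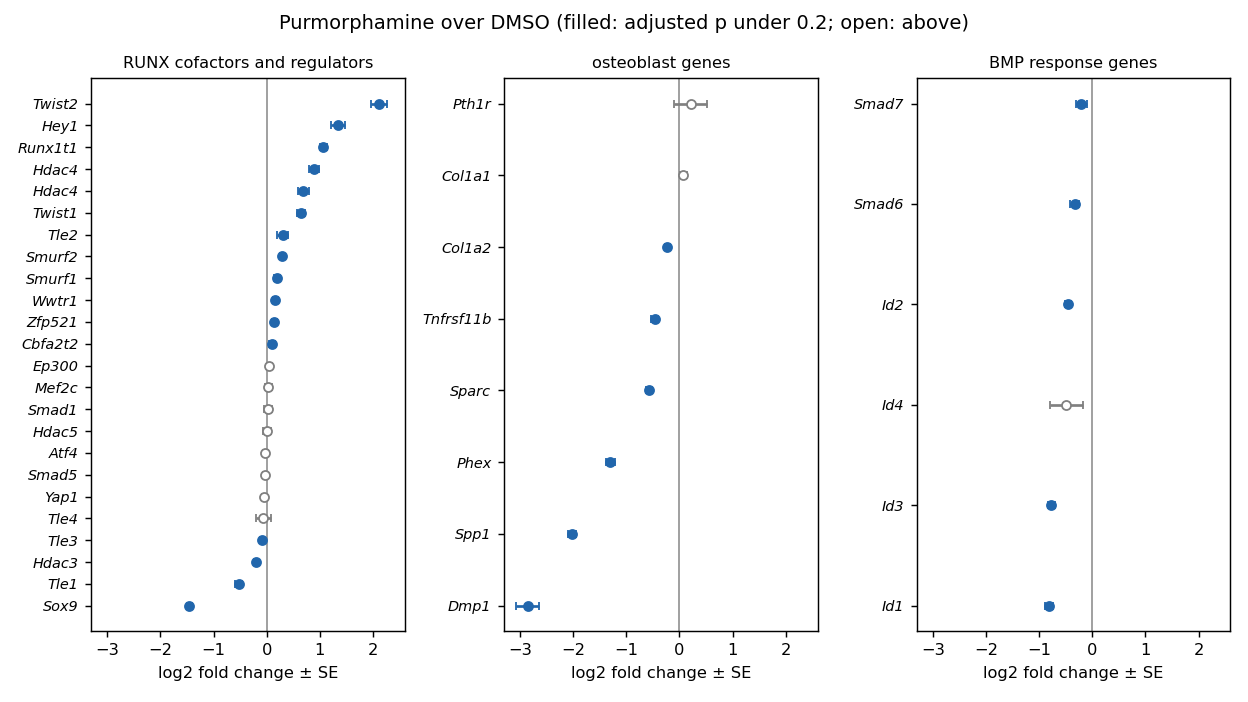
Log2 fold change of purmorphamine over DMSO (horizontal axes, ± standard error) for the tested genes of 3 lists: RUNX cofactors and regulators (24 rows), osteoblast genes (8, Alpl is left out since its vehicle libraries were at 0 or 1 read) and BMP response genes (6). Filled points have an adjusted p under 0.2. Twist2 is farthest to the right at 2.11, Dmp1 farthest to the left at -2.86, and all points of the BMP response genes lie left of 0.

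As a check of the labels, Gli1, itself a target of Hedgehog signalling, rose from 10.0 ± 2.65 to 2770.0 ± 295 reads and Ptch1, the Hedgehog receptor and a Gli target, from 521 ± 15.1 to 10922.5 ± 475. All 8 mesenchymal markers were present, with summed reads of 222218 to 226014 with vehicle and 207082 to 221594 with purmorphamine. They did not move alike, since 4 were called higher, 2 lower and 2 not called, against 31.4% higher and 31.1% lower over all genes tested. Among them Vim, which encodes vimentin, fell from 80155.3 ± 1150.5 to 42480.0 ± 843 reads (-0.96 on the log2 scale) and S100a4 fell (-0.44), while the receptor gene Pdgfra (0.76) and Thy1 (0.74) rose. Both blood cell markers with a row (Ptprc and Itgam, of 5 listed) had 0 or 1 read in each library, and these are cells in which Runx1 and Runx3 are known to act. Chondrocyte markers fell, with summed reads of 13378 to 13774 with vehicle and 2753 to 3549 with purmorphamine. Of these 5 of 5 tested were called lower, against 31.1% of all genes tested. Among them were Col2a1 (-3.20), Acan (-4.33), Sox5 (-3.15) and Sox6 (-1.86 on the log2 scale). Adipocyte markers also fell (3 of 3 tested, summed reads 1044 to 1078 and 779 to 901), Fabp4 the most (-1.39).

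Some markers of other cell types rose. Of the epithelial markers, Cdh1 (18.7 ± 4.04 to 126 ± 11.2 reads) and Trp63 (60.7 ± 5.51 to 344 ± 47.7) rose, while Krt14 had at most 1 read, and the summed reads were 71 to 88 with vehicle and 383 to 511 with purmorphamine. Of the endothelial markers, Tek rose from 797 ± 24.2 to 1953.8 ± 119 reads and Cdh5 from 0 to 23.2 ± 2.22, at least 7.75-fold higher against a floor of 3 reads per library, while Pecam1 and Kdr had at most 5 reads in a library. Summed endothelial reads were 779 to 820 and 1898 to 2154. The muscle markers with a row (Myf5 and Acta1, of 5 listed) had at most 4 reads together in a library. The part of any of these cell types in the results for the 9 genes was not tested.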

How the data were processed

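Stranded total RNA depleted of ribosomal RNA was sequenced by the authors as single reads, which they resampled to equal numbers per library before counting sense-strand reads per gene. The deposited counts are whole numbers, 14337225 to 14342154 per library. The submitters' processing notes name STAR 2.5.3a and mm9, and the gene annotation is not given in the sources used here. The authors tested with limma-voom at an FDR of 0.2.

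All 7 libraries were grouped by their labels, and no per-sample column was left out. Pairs of libraries within a group differed by more than sampling noise (mean chi-square per gene 2.12 to 8.36, against at least 45.9 between groups). Counts were tested with edgeR 4.0.16 (R 4.3.3): TMM factors (0.978 to 1.02), the default filter on low counts (minimum 10, total 15) and a quasi-likelihood test without covariates, with Benjamini-Hochberg adjustment over 12388 genes. The test was tried on simulated data first. Standard errors were derived from each gene's F statistic. Permutation tests covered all 35 assignments, on log2 scaled reads with 1 added for single genes and for the summed Runx reads. Exon lengths, the union over transcripts, came from GENCODE M21 by Ensembl identifier (95.5% of genes matched), and the counting may have used other exons. Promoter windows were found for 6 of the 9 genes, in RefSeq on GRCm38.p6.

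The 9 genes and all lists were chosen with earlier results of these data known. From the lists, 2 genes of the RUNX cofactors and regulators are not reported here and were left out of the counts. List genes were named when they passed an adjusted p of 0.05, a 2-fold change and a mean of 20 reads in a group, with Gli1 and Ptch1 besides. Twist1, Hdac4, Hdac3, Tle1, Sp1, Dlx1, Dlx2, Dlx6, Id1, Id3, Col1a1, Col1a2, Sparc, Tnfrsf11b, Tle2, Tle3, Smurf1, Smurf2, Wwtr1, Zfp521, Cbfa2t2, Vim, S100a4, Pdgfra, Thy1 and the genes given as not called or not tested were named after their values had been seen. Alternatives were scaling by library totals, DESeq2 1.42.0, limma-voom (limma 3.58.1), other filters and thresholds, levels without length correction, and each library left out in turn.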

Additional observations from a re-analysis of the deposited data

Results flagged for a closer look

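Of 28 genes and shares examined in the purmorphamine group, none of the 7 osteoblast factors tested had a library that stood apart from the other 3 (Sp7 and Dlx3 were not examined), and 2 genes of the other lists did. For Dmp1, with 10, 9, 19 and 10 reads in replicates 5 to 8, the gap between the highest library and the next made up 0.898 of the range after TMM scaling. For Trp63, with 376, 273, 365 and 362 reads, the gap below the others made up 0.857 of it. Chance alone flags about 1 in 20 such groups.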

How the results depend on the processing

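No paired analysis was possible because no replicate number occurs in both groups. Requiring a change of 1.5-fold left 977 genes called higher and 936 lower over all genes, and 3 of the 9 genes higher (Cbfb, Dlx5 and Msx1), by construction of the threshold. The calls of Runx1, Cbfb, Dlx5 and Msx1 held in every alternative, and that of Runx2 (log2 fold change 0.44) in all but the 1.5-fold minimum. Msx2 lost its call at an adjusted p of 0.05, at 1.5-fold, with DESeq2 (0.297) and without DMSO replicate 2 (0.229). Over the other fits the adjusted p of Msx2 ran from 0.0845 (edgeR, library totals alone) to 0.187 (edgeR, without DMSO replicate 3). Runx3 gained a call without purmorphamine replicate 7 (adjusted p = 0.194), and its log2 fold change ran from 0.08 to 0.25 with single libraries left out. Without a filter on low counts Sp7 was called (adjusted p = 0.17, log2 fold change 1.23, which depends on the prior count), and Dlx3 was not (0.512). For these the cause was not tested. No direction reversed. With no length correction the share of Runx2 differed by 22.8 percentage points in place of 18.8, and Cbfb stood at 1.69 times Runx2 with vehicle in place of 4.3, since the exons of Cbfb sum to 3.48 kb and those of Runx2 to 8.84 kb. At this depth, changes of Msx2, Sp7 and Dlx3 are measured on 26 reads or fewer in a library.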

Other observations

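For each of the 7 genes tested, the genes with the most similar profile were sought among 11554 others with a mean of at least 20 reads, by the root mean square difference between log2 CPM centred on each gene's own mean over the 7 libraries. Nearest to Runx1 were Enpp1 (0.0392), which encodes an enzyme that makes pyrophosphate, and the ETS factor Erg (0.0399), and these had log2 fold changes of -1.47 and -1.44. Nearest to Runx2 were Ncoa7 (0.0199) and Pvrl3 (0.0275), and nearest to Cbfb were Mfap3l (0.0286) and Aspn (0.0342), which encodes the matrix protein asporin. Msx1 was nearest to Tpcn1 (0.0271) and Rab6b (0.0498), Msx2 to Tbc1d24 (0.0328) and Plagl2 (0.0354), and Runx3 to Usp20 (0.037) and Mrpl4 (0.0431). Dlx5, whose purmorphamine libraries were widely spread, had no profile as close, with Nsl1 at 0.0946 and Rad51ap1 at 0.0947. These distances are descriptions over 7 libraries, and the difference between the treatments enters each of them.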
